A study of Mus musculus with 21 samples.

Results

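Between 8 hours after day 4 (D4H8) and day 5 (D5) of an in vitro motor neuron (MN) differentiation, cultures pass from proneural MNs, in which cycling progenitors and cells about to leave the cycle are mixed, to newborn, postmitotic MNs. This step was measured by RNA-seq in 6 samples, 3 biological replicates at D4H8 and 3 at D5, of the 21 samples in the series. They were chosen by their stage labels and the absence of GSKJ4, an inhibitor of H3K27 demethylases, and no measured value entered the choice. The nominal distance between both harvests is 16 h. All cells came from WT C57BL/6 mouse embryonic stem cells kept on Mitomycin-C-treated mouse embryonic fibroblasts, grown as embryoid bodies from day 0 and given retinoic acid (RA) and SAG, an agonist of Sonic hedgehog signalling, from day 2. The inhibitor DAPT, which blocks the protease that releases active Notch, was added on day 4, so that both groups had received it, the D4H8 cells for 8 h and the D5 cells for a day. The embryoid bodies were not sorted, and the labels give motor neuron as the cell type of every sample. The other untreated stages, D4 (motor neuron progenitors) and D6 (maturing MNs), with 3 samples each, enter the fit and are given as levels for orientation.

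MNs of the ventral spinal cord arise from dividing progenitors that carry the transcription factor Olig2. Notch signalling between neighbours keeps progenitors cycling, and cells in which proneural factors such as Neurog2 accumulate leave the cycle and switch on the LIM homeodomain factors Isl1 and Lhx3 together with Mnx1. A cell that leaves the cycle stops making the machinery for DNA replication and mitosis, raises inhibitors of cyclin-dependent kinases, and begins to build an axon, channels and synapses. Exchanges between related genes, for example of a splicing repressor or of single subunits of a chromatin remodelling complex, are known to accompany neuronal differentiation.

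Total counts were 14982115 to 16647584 in 5 of the 6 samples and 34383842 in D4H8 replicate 1, with 23113 to 26061 genes detected per sample. D5 replicate 1 stood apart in that mitochondrially encoded genes held 0.335% of its counts, against 1.65% to 2.14% in the other 5. No 2 samples of a group agreed within sampling noise. Levels are given as FPKM, which scale counts to exon length and library size, in the order of replicates 1, 2 and 3. Fold changes are log2 of D5 over D4H8 ± the standard error, fitted by edgeR to counts, with p-values adjusted over 17519 tested genes and called at 0.05. A lone value beside a gene is its log2 fold change. Since these are bulk cultures, fewer cells of a type and less RNA per cell cannot be told apart. The counting strand is not stated, so genes that overlap a gene on the other strand are uncertain. Among genes named below these include *Hes5*, *Gli1*, *Nefl*, *Nefm*, *Ina*, *Lhx3*, *Plk1*, *Foxb1*, *Tk1*, *Cdkn1c*, *Hoxb5*, *Hoxd3*, *Pfkp*, *Slc2a1*, *Tuba1b*, *Olig1*, *Mxd3*, *Kif22* and *Kif2a*.

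To check the stage labels, the 6 factors that the study stained were examined. *Olig2*, the progenitor factor, stood at 124, 79.4 and 91.7 FPKM at D4H8 and 15.2, 24.2 and 27.8 FPKM at D5 (log2 fold change -2.14 ± 0.28, edgeR adjusted p = 6.41e-05). *Neurog2*, the proneural factor, was at 48.3, 41.2 and 43.8 FPKM at D4H8 and 16.5, 30.8 and 29.1 FPKM at D5 (log2 fold change -0.81 ± 0.20, edgeR adjusted p = 0.00863). Every D5 value of both genes lay below every D4H8 value, and D5 replicate 1 was the lowest. *Isl1* measured 34, 27.2 and 24.4 FPKM at D4H8 and 73.4, 89.8 and 91.6 FPKM at D5 (log2 fold change 1.57 ± 0.23, edgeR adjusted p = 1.73e-04). *Mnx1* measured 9.85, 11.4 and 17.4 FPKM at D4H8 and 37.6, 36.8 and 45.1 FPKM at D5 (log2 fold change 1.64 ± 0.28, edgeR adjusted p = 6.62e-04). *Lhx3* measured 5.22, 6.99 and 6.71 FPKM at D4H8 and 28.4, 18.9 and 22.7 FPKM at D5 (log2 fold change 1.90 ± 0.34, edgeR adjusted p = 9.00e-04). All D5 samples exceeded all D4H8 samples for these 3 MN determinants. *Neurod1*, a later proneural factor, gave 26.4, 13.5 and 16.4 FPKM at D4H8 and 18.3, 26.8 and 27.3 FPKM at D5, the groups overlapped, and the change did not pass the test (log2 fold change 0.35 ± 0.23, edgeR adjusted p = 0.303). Set among the 4 stages, mean *Neurog2* was 8.09 FPKM at D4, 44.4 at D4H8, 25.4 at D5 and 1.91 at D6, and mean *Lhx3* was 1.02, 6.31, 23.3 and 3.24 FPKM, so *Neurog2* was highest at D4H8 and *Lhx3* at D5.

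**Figure D1:**
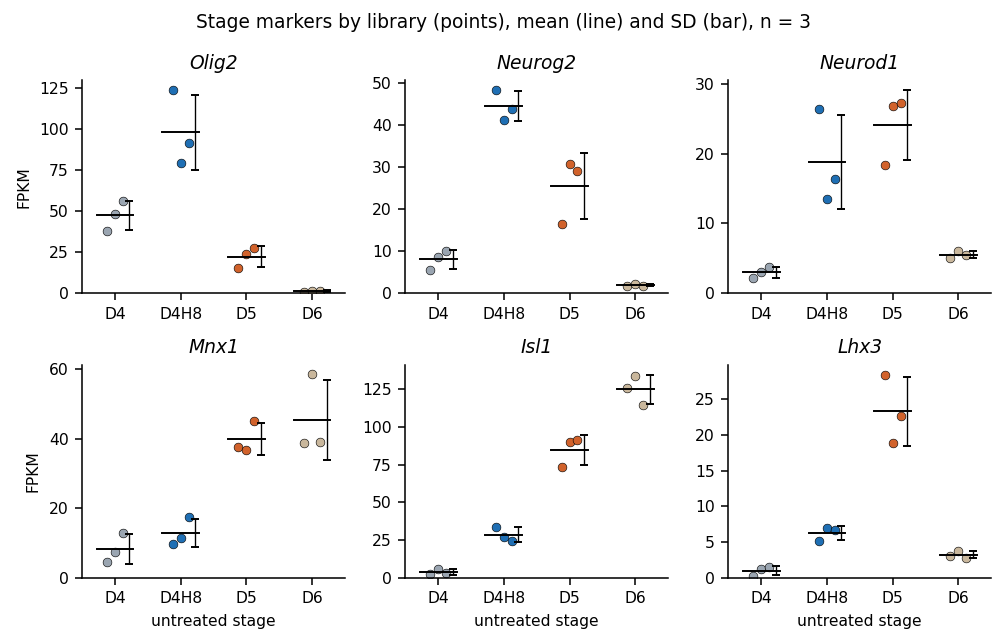
FPKM of 6 stage markers (y axes, linear from 0) in each of the 12 untreated samples at D4, D4H8, D5 and D6 (x axes). Points are samples, lines are means and bars are SD of 3. Between D4H8 and D5 the points of *Olig2* and *Neurog2* move down and those of *Mnx1*, *Isl1* and *Lhx3* move up without overlap, while those of *Neurod1* overlap.

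Across the genome the step was broad and uneven in size. Of 17519 genes tested, 3019 were higher at D5 (17.2%) and 1842 were lower (10.5%), the shares against which the counts of each gene list below are read. Among the higher genes the median log2 fold change was 1.13, and 723 rose by at least 2 on the log2 scale. The lower genes moved less, with a median of -0.72, and 30 of them fell by at least 2 on that scale. The median over all tested genes was 0.0131. Without D5 replicate 1 the test called 2441 genes higher and 1273 lower. The genes called higher held 11.1% to 12.1% of the counts of the D4H8 samples and 21.8% to 25.6% of those of the D5 samples. In samples outside the contrast, these genes held 8.29% to 9.56% of the counts at D4 and 31.9% to 37.2% at D6. The genes called lower went from 21.6% to 22.1% of counts at D4H8 to 11.9% to 14.3% at D5. For both sets the direction of the shift from D4H8 to D5 was fixed by calling the genes in these same samples.

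**Figure D2:**
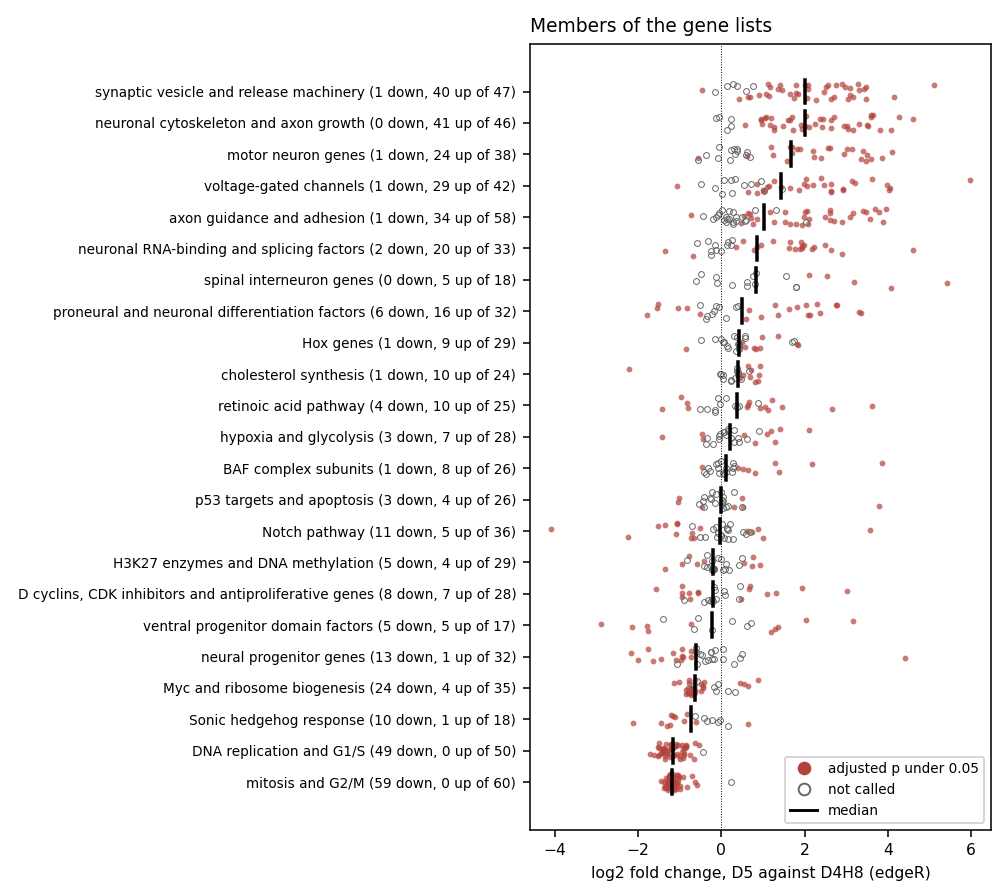
Log2 fold change from D4H8 to D5 (x axis) of every tested member of 23 gene lists (rows, ordered by their median, with the number of members that fell and rose). Filled points passed the test at an adjusted p of 0.05, open points did not, and black bars are medians. The DNA replication and mitosis lists form narrow groups around medians of -1.17 and -1.18, whereas the neuronal lists spread over a wide range of rises.

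The cell cycle machinery fell nearly as a block. Of 60 genes of mitosis and G2/M, 59 fell and 0 rose (median log2 fold change -1.18), and of 50 genes of DNA replication and G1/S, 49 fell and 0 rose (median -1.17). The single members that did not pass were *Pttg1*, the securin that keeps sister chromatids from parting early, at 0.23 (edgeR adjusted p = 0.295), and *Gins4* of the replicative helicase at -0.43 (edgeR adjusted p = 0.0576, under 0.05 in 9 of 21 alternatives). *Rrm2*, which makes deoxynucleotides, changed most among the replication genes, with 209, 189 and 195 FPKM at D4H8 and 42.8, 67.2 and 70.1 FPKM at D5 (log2 fold change -1.72 ± 0.24, edgeR adjusted p = 1.31e-04). *Mcm10*, *Mcm5* and *Tk1*, the first 2 needed to start the replicative helicase and the third to salvage thymidine, changed by -1.62, -1.52 and -1.51 on the log2 scale. *Mki67*, the proliferation antigen Ki-67, was at 71.6, 64.5 and 64.4 FPKM at D4H8 and 18, 30.6 and 28.5 FPKM at D5 (log2 fold change -1.38 ± 0.25, edgeR adjusted p = 8.74e-04). *Plk1*, a kinase of mitotic entry, was at 82, 77.2 and 85.7 FPKM at D4H8 and 16, 33 and 41.7 FPKM at D5 (log2 fold change -1.44 ± 0.31, edgeR adjusted p = 0.0034). *Cdk1*, the kinase that drives mitosis, was at 36, 38 and 36.1 FPKM at D4H8 and 10.7, 19.4 and 17.9 FPKM at D5 (log2 fold change -1.20 ± 0.29, edgeR adjusted p = 0.00616). No D5 sample reached the lowest D4H8 sample for any of these 4, and none came near 0. Mean *Mki67* was 65.7 FPKM at D4 and 9.7 at D6. The D5 mean of *Mki67*, 25.7 FPKM, lay between these.

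D5 replicate 1 was the lowest of the D5 samples in these lists. The median member of the mitosis list stood at -1.52 from the D4H8 mean on the log2 scale in that sample, against -0.99 and -1.04 in the other D5 samples. When D5 replicate 1 was left out, 50 of 60 mitosis genes and 49 of 50 replication genes passed as lower. Pluripotency markers were lower in replicate 1 at both stages, while the mitosis list was level over the D4H8 samples (-0.01, 0.01 and -0.01). The median of the pluripotency markers lay at -1.19, 0.73 and 0.59 in D4H8 replicates 1 to 3 and at -1.61, 0.13 and 0.15 in D5 replicates 1 to 3, relative to the D4H8 mean. The part that these differences between replicates have in the size of the cell cycle change was not tested.

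**Figure D3:**
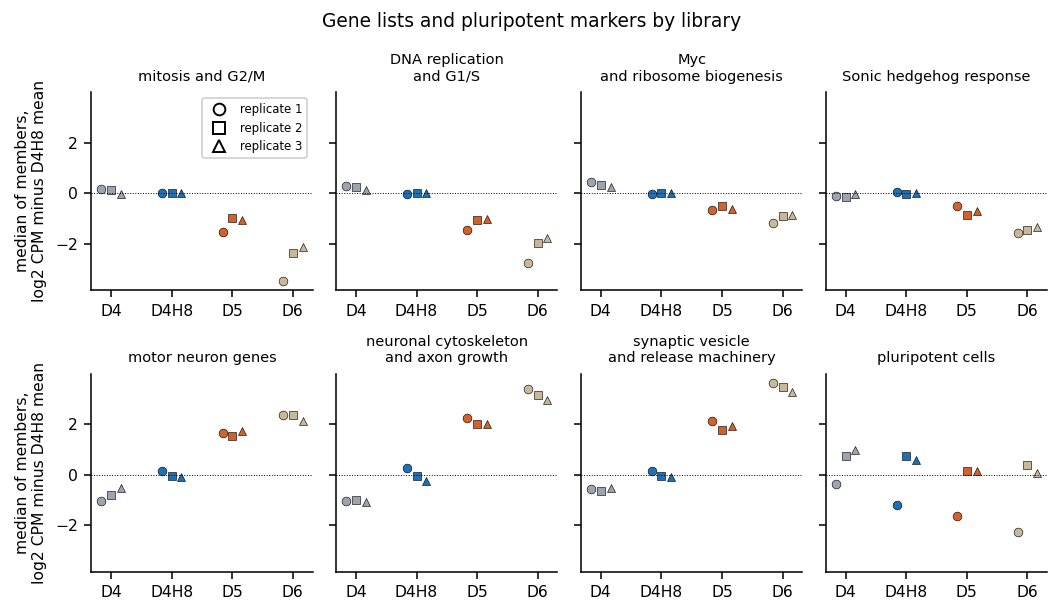
Median over list members of log2 counts scaled to library size (CPM) minus the mean of the D4H8 samples (y axes), for 8 lists in the 12 untreated samples (x axes, stage; marker shape, replicate number). Mitosis and replication genes drop at D5 in every replicate, most in replicate 1, while neuronal lists rise with little spread, and pluripotency markers differ more between replicate numbers than between D4H8 and D5.

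Promoters of 4 of these genes are shown because they hold letters known from transcription in the cell cycle or under Notch. In lower case with the searched letters in capitals, they run 5′ to 3′ from 250 bases before to 50 bases after the RefSeq start in build GRCm38.p6. For *Cdk1* (chr10:69352863-69353162, minus strand) and *Mki67* (chr7:135716330-135716629, minus strand) the capitals mark the cell cycle homology region (CHR) TTTGAA and the CCAAT box, for *Cdc6* (chr11:98907901-98908200, plus strand) an E2F match, and for *Hes5* (chr4:154960673-154960972, plus strand) matches for RBPJ, the factor that Notch activates.
Cdk1: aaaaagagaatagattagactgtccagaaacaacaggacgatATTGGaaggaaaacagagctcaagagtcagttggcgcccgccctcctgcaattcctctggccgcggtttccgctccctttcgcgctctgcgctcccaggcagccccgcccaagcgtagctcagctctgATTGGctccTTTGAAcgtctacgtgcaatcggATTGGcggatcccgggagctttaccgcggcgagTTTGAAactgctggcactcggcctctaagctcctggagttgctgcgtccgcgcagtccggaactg
Mki67: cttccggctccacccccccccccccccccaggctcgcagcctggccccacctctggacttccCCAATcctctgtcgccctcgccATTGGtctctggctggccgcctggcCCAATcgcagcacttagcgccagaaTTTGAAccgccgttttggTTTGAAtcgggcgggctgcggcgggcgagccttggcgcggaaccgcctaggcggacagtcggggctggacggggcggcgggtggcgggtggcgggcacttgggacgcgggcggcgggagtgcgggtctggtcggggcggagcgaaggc
Cdc6: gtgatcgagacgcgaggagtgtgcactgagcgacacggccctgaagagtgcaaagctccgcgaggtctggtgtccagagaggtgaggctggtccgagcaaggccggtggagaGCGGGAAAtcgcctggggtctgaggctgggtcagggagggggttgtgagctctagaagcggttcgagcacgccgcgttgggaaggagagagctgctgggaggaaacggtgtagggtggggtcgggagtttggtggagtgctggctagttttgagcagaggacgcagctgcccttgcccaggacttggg
Hes5: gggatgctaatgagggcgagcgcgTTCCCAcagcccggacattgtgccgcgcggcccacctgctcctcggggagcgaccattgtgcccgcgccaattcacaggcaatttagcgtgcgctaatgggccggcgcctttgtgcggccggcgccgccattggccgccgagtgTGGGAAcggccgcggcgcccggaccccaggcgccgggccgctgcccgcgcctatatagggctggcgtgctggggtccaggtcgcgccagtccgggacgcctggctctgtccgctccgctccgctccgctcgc
All were searched on both strands, E2F as TTT followed by GG or CC and then by CGC or CGG, and RBPJ as TGGGAA. These 4 promoters were chosen after the letters in them were known. *Cdk1* held CHR letters beginning 71 and 15 bases before the start with CCAAT boxes at 208, 80 and 48 bases before it, and *Mki67* had CHR letters at 116 and 98 bases before the start. The E2F letters of *Cdc6*, which loads the replicative helicase and was lower at D5 (log2 fold change -1.50), began 138 bases before the start. *Hes5* held RBPJ letters at 226 and 82 bases before the start, in opposite orientations. Of the 60 tested mitosis genes 52 had a promoter in the table, and 38 of these (73.1%) held CHR letters, against 11.55% of those of the 11281 tested protein-coding genes with a promoter and 18.1% of all 27025 promoters of the same length. The CHR and a CCAAT box stood together in 31 of the 52 (59.6%), against 5.01% of tested genes and 7.12% of all promoters. E2F letters were found in 16 of 41 replication promoters (39.0%), against 5.78% of tested genes and 3.40% of all promoters. RBPJ letters were in 6 of 29 promoters of Notch pathway genes (20.7%), against 23.1% of tested genes and 25.5% of all promoters. These are counts of letters in a window and do not locate a factor.

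Regulators of the cycle did not move as a block. Of 28 D cyclins, kinase inhibitors and antiproliferative genes, 7 rose and 8 fell (median -0.19, and 5 and 5 without D4H8 replicate 1). *Ccnd2*, a D cyclin, was at 92.8, 76.7 and 77 FPKM at D4H8 and 20.8, 33.6 and 29 FPKM at D5 (log2 fold change -1.57 ± 0.18, edgeR adjusted p = 2.60e-05). *Ccnd1* fell less (log2 fold change -0.56 ± 0.17, edgeR adjusted p = 0.027), and its call was lost in 3 of 21 alternatives. Among inhibitors of cyclin-dependent kinases, *Cdkn1c* (p57) had 83.1, 60.7 and 63.9 FPKM at D4H8 and 199.9, 149 and 170.5 FPKM at D5 (log2 fold change 1.32 ± 0.17, edgeR adjusted p = 7.02e-05) and *Cdkn2d* (p19) had 18.1, 17.7 and 17.7 FPKM at D4H8 and 52.4, 29.6 and 31.8 FPKM at D5 (log2 fold change 1.10 ± 0.21, edgeR adjusted p = 0.0015). The D5 values of these inhibitors lay above all D4H8 values. *Cdkn1b* (p27), by contrast, gave 20, 17.2 and 23.3 FPKM at D4H8 and 18.1, 23.9 and 21.4 FPKM at D5 and did not pass (log2 fold change 0.07 ± 0.14, edgeR adjusted p = 0.777). Of further inhibitors, *Cdkn1a* was called higher and *Cdkn2c* lower, each with the call lost in 4 of 21 alternatives. The largest rises in this list were those of the neuronal activators of Cdk5, a kinase that acts in postmitotic neurons: *Cdk5r1* (p35) was at 4.07, 3.18 and 2.63 FPKM at D4H8 and 30.6, 23.6 and 26.8 FPKM at D5 (log2 fold change 3.02 ± 0.19, edgeR adjusted p = 1.46e-07). *Cdk5r2* (p39) was at 1.54, 1.16 and 1.69 FPKM at D4H8 and 6.67, 4.49 and 5.69 FPKM at D5 (log2 fold change 1.94 ± 0.25, edgeR adjusted p = 5.81e-05). *Btg2*, an antiproliferative gene of neurogenic divisions, fell (log2 fold change -0.95 ± 0.18, edgeR adjusted p = 0.00152), as did *Gadd45g*, a stress and proneural target gene (log2 fold change -0.95 ± 0.26, edgeR adjusted p = 0.0135), the latter with the call lost without D4H8 replicate 1.

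Growth genes fell more gently. Of 35 genes of Myc and ribosome biogenesis, 24 fell and 4 rose (median -0.63, with 18 and 4 without D5 replicate 1, and 25 and 2 without D5 replicate 2). *Utp20*, needed to process ribosomal RNA, was at 17.3, 17.1 and 16.4 FPKM at D4H8 and 6.92, 8.73 and 9.33 FPKM at D5 (log2 fold change -1.02 ± 0.15, edgeR adjusted p = 2.26e-04). *Nolc1*, a nucleolar chaperone, was at 63.8, 67.6 and 67.3 FPKM at D4H8 and 30.2, 41.4 and 38.5 FPKM at D5 (log2 fold change -0.85 ± 0.14, edgeR adjusted p = 4.15e-04). The 4 that rose, of which *Mxd4* and *Mxi1* lost the call in 6 and 1 of 21 alternatives, were *Mxd1*, *Mxd4*, *Mxi1* and *Mnt*, all partners of Max that oppose Myc, with *Mxd1* at 2.22, 1.62 and 1.65 FPKM at D4H8 and 4, 3.22 and 2.91 FPKM at D5 (log2 fold change 0.88 ± 0.19, edgeR adjusted p = 0.00342). A further partner of this kind, *Mxd3*, known from S phase, was lower (log2 fold change -1.14 ± 0.29, edgeR adjusted p = 0.0087). *Myc* itself did not pass (log2 fold change 0.32 ± 0.24, edgeR adjusted p = 0.345). None of 83 cytoplasmic ribosomal protein genes rose and 17 fell (median -0.43), and of 78 mitochondrial ribosomal protein genes 0 rose and 17 fell (median -0.25). Among 46 complex I genes 1 rose and 0 fell (median 0.0006). Many ribosomal protein genes have near-identical copies in the genome, which makes their counts uncertain.

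In counts scaled to library size alone (CPM), the largest losses among called genes were *Hsp90ab1*, a heat shock chaperone, *Rplp0*, *Rpsa* and *Rps2* of the ribosome, *Grb10*, an imprinted adaptor of growth factor receptors, *Tuba1b*, *Mdk*, the growth factor midkine, and *Slc2a1*, a glucose transporter. *Rplp0* had 2499.6, 2157 and 1794 CPM at D4H8 and 895, 1308 and 1360.3 CPM at D5 (log2 fold change -0.86 ± 0.20, edgeR adjusted p = 0.00557), and *Slc2a1* had 951, 1023 and 1266 CPM at D4H8 and 419, 328 and 449 CPM at D5 (log2 fold change -1.43 ± 0.26, edgeR adjusted p = 0.00117). The calls of *Hsp90ab1*, *Rps2* and *Mdk* were lost in 3, 4 and 1 of 21 alternatives, in each case with the fit without D5 replicate 1 among them. The largest gains were *Tuba1a*, *Cntn2*, *Tubb3*, *Nefm*, *Nefl*, *Ina*, *Map1b* and *Dpysl3*, which are tubulins, neurofilament proteins, a microtubule-associated protein, an axonal adhesion molecule and a growth cone protein. *Tubb3* had 529.8, 382 and 263 CPM at D4H8 and 1959.6, 1671 and 2022 CPM at D5 (log2 fold change 2.26 ± 0.28, edgeR adjusted p = 4.70e-05).

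Progenitor genes fell in part. Of 32 tested neural progenitor genes, 13 fell and 1 rose (median -0.60). *Sox3* was at 66, 39.5 and 51.7 FPKM at D4H8 and 17.3, 9.31 and 13 FPKM at D5 (log2 fold change -1.99 ± 0.29, edgeR adjusted p = 1.84e-04). Its relative *Sox2* was at 47.2, 54.9 and 75.6 FPKM at D4H8 and 18.2, 37.5 and 35.9 FPKM at D5 (log2 fold change -0.95 ± 0.32, edgeR adjusted p = 0.0401, call lost in 4 of 21 alternatives). The inhibitors of proneural factors split: *Id3* was at 83.4, 69.2 and 56.4 FPKM at D4H8 and 12.8, 16.4 and 17.2 FPKM at D5 (log2 fold change -2.18 ± 0.19, edgeR adjusted p = 1.64e-06) and *Id1* fell (log2 fold change -1.76), while *Id4* was at 0.51, 0.45 and 0.52 FPKM at D4H8 and 13.4, 10.4 and 7.71 FPKM at D5 (log2 fold change 4.41 ± 0.32, edgeR adjusted p = 4.48e-07). *Id4* was the single riser of this list, with no D4H8 value above 0.52 and no D5 value under 7.71 FPKM. *Id2* did not pass (log2 fold change -0.33 ± 0.22, edgeR adjusted p = 0.293). The intermediate filament genes *Nes* and *Vim*, often used to mark progenitors, were at -0.25 and 0.03 and did not pass.

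Among 17 factors of the ventral progenitor domains, 5 fell and 5 rose (median -0.23). *Nkx2-9*, a Sonic hedgehog-dependent factor of ventral progenitors, was at 142, 82 and 84.1 FPKM at D4H8 and 18.2, 11.3 and 12.3 FPKM at D5 (log2 fold change -2.88 ± 0.27, edgeR adjusted p = 3.35e-06), and *Olig1*, the neighbour of *Olig2*, fell (log2 fold change -1.77). *Nkx6-2* also fell (log2 fold change -1.76 ± 0.31, edgeR adjusted p = 8.45e-04), whereas its relative *Nkx6-1*, which MNs keep, did not pass (log2 fold change 0.61 ± 0.29, edgeR adjusted p = 0.134). *Irx5* and *Irx3*, factors of more dorsal progenitors, rose by 2.05 and 1.36. *Shh*, whose product is secreted by floor plate cells and by some MNs, was at 0.49, 0.22 and 0.45 FPKM at D4H8 and 4.69, 3.1 and 2.96 FPKM at D5 (log2 fold change 3.17 ± 0.34, edgeR adjusted p = 1.25e-05). *Msx1* and *Gbx1*, homeobox genes of dorsal and intermediate progenitors, were among the largest falls, at -2.84 and -2.62, from 3.99 FPKM or less.

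Genes of the Sonic hedgehog response fell as a majority, with the agonist in the medium since day 2. Of 18 genes of the pathway, 10 fell and 1 rose (median -0.72). *Gli1*, its most direct target, was at 18.2, 18.8 and 19.8 FPKM at D4H8 and 2.58, 5.7 and 4.88 FPKM at D5 (log2 fold change -2.11 ± 0.28, edgeR adjusted p = 8.19e-05). No D5 value reached the lowest D4H8 value. *Gli3* and *Gli2*, further effectors of the pathway, fell (log2 fold changes -1.44 and -1.31). The receptor *Ptch1*, itself a target, was at 49.5, 40.4 and 50.9 FPKM at D4H8 and 19.1, 20.4 and 21.8 FPKM at D5 (log2 fold change -1.20 ± 0.14, edgeR adjusted p = 3.00e-05), and the binding protein *Hhip* fell (log2 fold change -1.22). *Smo*, the protein that SAG binds, was lower as well (log2 fold change -0.90 ± 0.14, edgeR adjusted p = 2.47e-04). The riser was *Gpr161*, a receptor of the primary cilium that restrains the pathway (log2 fold change 0.63 ± 0.13, edgeR adjusted p = 0.00292).

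Notch pathway genes did not move together. Of 36, 11 fell and 5 rose (median -0.04, and 7 and 6 without D4H8 replicate 1). The largest fall among all called genes was that of *Hes5*, a Notch target whose promoter is shown above, which was at 15.9, 6.91 and 4.99 FPKM at D4H8 and 0.38, 0.66 and 0.6 FPKM at D5 (log2 fold change -4.09 ± 0.50, edgeR adjusted p = 3.56e-05). The D4H8 samples themselves differed, with replicate 1 highest, and the D5 samples lay far below all of them. The targets *Hes1* and *Hey2* and the receptor *Notch1* fell (log2 fold changes -0.72, -1.52 and -1.09). *Lfng*, which adds sugars to Notch, was at 18.1, 11.6 and 13.8 FPKM at D4H8 and 4.14, 2.01 and 3.09 FPKM at D5 (log2 fold change -2.24 ± 0.31, edgeR adjusted p = 1.24e-04), while its relatives differed in direction, *Rfng* at 0.73 (higher, call lost in 3 of 21 alternatives) and *Mfng* at -0.51 (not passing). Of the ligands, *Dll1* was at 43.8, 28.3 and 33.8 FPKM at D4H8 and 15.8, 12.1 and 13.4 FPKM at D5 (log2 fold change -1.36 ± 0.19, edgeR adjusted p = 1.31e-04), *Jag2* rose (log2 fold change 0.88 ± 0.21, edgeR adjusted p = 0.00654), and *Dll3* did not pass (log2 fold change 0.70 ± 0.30, edgeR adjusted p = 0.104). *Dner*, a neuronal transmembrane relative of the ligands, was at 0.32, 0.18 and 0.25 FPKM at D4H8 and 3.54, 2.99 and 2.77 FPKM at D5 (log2 fold change 3.57 ± 0.28, edgeR adjusted p = 8.82e-07). Of the genes of the protease that DAPT inhibits, *Psen2*, *Ncstn*, *Aph1a* and *Psenen* did not pass (log2 fold changes 0.06, -0.01, -0.01 and 0.17).

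Genes of RA handling changed in several directions. Of 25 tested, 10 rose and 4 fell (median 0.37). *Rxrg*, a nuclear receptor, was at 0.58, 0.35 and 0.55 FPKM at D4H8 and 5.78, 6.01 and 7.07 FPKM at D5 (log2 fold change 3.63 ± 0.38, edgeR adjusted p = 8.59e-06). *Aldh1a2*, which makes RA and is known from limb-level MNs, was at 0.42, 0.65 and 0.18 FPKM at D4H8 and 2.26, 3.63 and 2.16 FPKM at D5 (log2 fold change 2.66 ± 0.31, edgeR adjusted p = 2.81e-05), with a D6 mean of 56.1 FPKM. Among the enzymes that degrade RA, *Cyp26b1* was at 84.8, 57.2 and 47.7 FPKM at D4H8 and 236, 144 and 137 FPKM at D5 (log2 fold change 1.45 ± 0.39, edgeR adjusted p = 0.0126), while *Cyp26a1* and *Cyp26c1* were lower, at -0.82 and -0.96. The *Cyp26b1* call was lost without D4H8 replicate 2, D4H8 replicate 3 or D5 replicate 1, and that of *Cyp26a1* when either of the latter was left out. The binding proteins differed too: *Crabp2* was at 391, 329 and 319 FPKM at D4H8 and 159.5, 127 and 97.8 FPKM at D5 (log2 fold change -1.43 ± 0.27, edgeR adjusted p = 0.00137). *Crabp1* was at 699, 586 and 382 FPKM at D4H8 and 1402, 1064 and 969.9 FPKM at D5 (log2 fold change 1.04 ± 0.28, edgeR adjusted p = 0.0116). The *Crabp1* call was lost without D4H8 replicate 3 or D5 replicate 1.

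Proneural genes changed in both directions. Of 32 tested proneural and neuronal differentiation factors, 16 rose and 6 fell (median 0.49). The number that rose was 12 and 14 without D4H8 replicates 2 and 3, and 13 without any single D5 sample, with 6 lower each time. Those that fell included the early bHLH factors *Neurog1* (-1.78), *Neurog2* (-0.81), *Neurod4* (-1.03) and *Atoh8* (-1.54), with their partner *Tcf3* (-0.50). Several of those that rose are known from neurons that have left the cycle. *Scrt1*, a neuronal repressor, was at 1.98, 1.17 and 0.85 FPKM at D4H8 and 16.2, 11.6 and 14.6 FPKM at D5 (log2 fold change 3.36 ± 0.28, edgeR adjusted p = 1.51e-06). *Myt1l*, which represses non-neuronal genes, was at 0.17, 0.13 and 0.08 FPKM at D4H8 and 1.51, 1.23 and 1.12 FPKM at D5 (log2 fold change 3.32 ± 0.29, edgeR adjusted p = 1.85e-06). *Ebf1* and *Ebf3*, factors of migrating neurons, rose by 2.77 and 2.05, *Nhlh2* by 2.13, and *Pou3f1*, a POU factor, by 2.74. *Insm1*, *Nhlh1* and *Neurod1* did not pass, at -0.13, 0.39 and 0.35. *Sox11*, which acts in newborn neurons, was at 52.8, 34.2 and 40.4 FPKM at D4H8 and 144, 96.7 and 87.1 FPKM at D5 (log2 fold change 1.37 ± 0.24, edgeR adjusted p = 7.56e-04).

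Of 38 MN genes, 24 rose and 1 fell (median 1.67). Transcription factors among them included *Isl2* (2.94), *Lhx4* (2.57), *Onecut2* (2.39) and *Onecut3*, the last at 0.38, 0.43 and 0.35 FPKM at D4H8 and 3.57, 5.27 and 4.21 FPKM at D5 (log2 fold change 3.48 ± 0.31, edgeR adjusted p = 2.14e-06). Genes of acetylcholine handling rose from low levels. *Slc18a3*, the vesicular acetylcholine transporter, was at 7.3, 5.89 and 5.89 FPKM at D4H8 and 64.6, 57.5 and 74.4 FPKM at D5 (log2 fold change 3.36 ± 0.28, edgeR adjusted p = 1.59e-06). *Chat*, the synthesizing enzyme, was at 1.39, 1.79 and 1.05 FPKM at D4H8 and 12.7, 11.1 and 13.6 FPKM at D5 (log2 fold change 3.14 ± 0.35, edgeR adjusted p = 1.53e-05). *Ache*, the degrading enzyme, was at 0.22, 0.19 and 0.25 FPKM at D4H8 and 3.22, 2.12 and 2.66 FPKM at D5 (log2 fold change 3.61 ± 0.30, edgeR adjusted p = 1.11e-06). *Slc10a4*, a protein of cholinergic vesicles, was at 2.47, 2.89 and 4.69 FPKM at D4H8 and 53.2, 54.1 and 60.4 FPKM at D5 (log2 fold change 4.09 ± 0.25, edgeR adjusted p = 1.32e-07). The groups were far apart for each of these. The choline transporter *Slc5a7* was still low, at 0.08, 0.05 and 0.11 FPKM at D4H8 and 0.39, 0.8 and 1.43 FPKM at D5 (log2 fold change 3.40 ± 0.42, edgeR adjusted p = 3.90e-05), with 17.5 FPKM at D6. The receptors of GDNF, a trophic factor of MNs, followed, with *Ret* at 1.70 and *Gfra1* at 2.23. *Foxp1*, a marker of limb MNs, did not pass (log2 fold change 0.38 ± 0.17, edgeR adjusted p = 0.125). The member that fell was *Foxp4* (log2 fold change -0.55 ± 0.18, edgeR adjusted p = 0.0393), and its call was lost in 7 of 21 alternatives.

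Genes of other neurons and tissues were measured beside these. Of 18 tested spinal interneuron genes 5 rose and 0 fell, and among those that rose *Slc17a6*, *Sim1*, *Slc6a5* and *Uncx* had D5 means from 0.0533 to 1.21 FPKM. The GABA-synthesizing enzymes *Gad1* and *Gad2* stood at 0.12 and 0.153 FPKM at D5. Transmitter genes outside the lists were among the largest rises: *Sst*, encoding somatostatin, was at 5.24, 3.07 and 2.13 FPKM at D4H8 and 104, 87.9 and 75 FPKM at D5 (log2 fold change 4.58 ± 0.33, edgeR adjusted p = 4.59e-07). *Th*, the enzyme of catecholamine synthesis, was at 2.65, 2.65 and 1.27 FPKM at D4H8 and 53.2, 39.3 and 44.7 FPKM at D5 (log2 fold change 4.36 ± 0.24, edgeR adjusted p = 7.21e-08). Of 15 pluripotency markers 0 rose and 1, *Sall4*, fell. Their summed level ran from 84.3 to 301 FPKM at D4H8 and from 69.3 to 184 FPKM at D5, with *Pou5f1* and *Nanog* present at both stages (D5 means 7.98 and 11.2 FPKM). Fibroblast and feeder markers summed to 81.4 to 106 FPKM at D4H8 and 74.2 to 118 FPKM at D5, and 1 of 19 rose and 1 fell. In the list of floor plate and p3 cells 5 of 10 rose and 2 fell, the defining marker *Foxa2* among the latter (log2 fold change -0.72 ± 0.20, edgeR adjusted p = 0.0175, call lost in 2 of 21 alternatives). The neural crest and sensory list had 3 of 9 higher and 0 lower (median 0.85), *Ngfr* among the higher. Its summed level ran from 40.0 to 80.7 FPKM at D4H8 and from 126 to 203 FPKM at D5. *Sox10*, which defines the crest, had a mean of 0.1 FPKM at D5. In the glial list 3 of 6 tested members rose and 0 fell (median 1.02), its summed level ran from 13.3 to 14.2 FPKM at D4H8 and from 24.7 to 27.5 FPKM at D5, and the defining markers *Gfap*, *Aqp4* and *S100b*, which were too low to test, stood at or below 0.0567 FPKM in both group means. In the endoderm list 1 of 9 fell and 0 rose (3 fell without D5 replicate 3), in mesoderm and muscle 0 of 6 passed, and in endothelium and blood 1 of 7 rose, with *Ptprc* at 0. The part of other cell types in the changes was not tested.

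Of the 23 lists, the neuronal cytoskeleton had the highest share of members that rose. Of 46 genes of cytoskeleton and axon growth, 41 rose and 0 fell (median 2.02). *Sncg*, a synuclein of peripheral axons, was at 7.24, 8.88 and 4.54 FPKM at D4H8 and 184, 188 and 137 FPKM at D5 (log2 fold change 4.61 ± 0.30, edgeR adjusted p = 1.92e-07). *Mapt*, encoding tau, was at 1.17, 1.31 and 1.19 FPKM at D4H8 and 26.1, 23.6 and 20.9 FPKM at D5 (log2 fold change 4.28 ± 0.17, edgeR adjusted p = 7.79e-09). For both genes every D5 value was far above every D4H8 value. *Nefl*, a neurofilament subunit, was at 25.1, 23.9 and 17.1 FPKM at D4H8 and 414, 359 and 344 FPKM at D5 (log2 fold change 4.08 ± 0.19, edgeR adjusted p = 1.78e-08). *Nefm*, another subunit whose annotation overlaps *Nefl* on the opposite strand, was at 24.6, 17.4 and 12.3 FPKM at D4H8 and 296, 265 and 208 FPKM at D5 (log2 fold change 3.82 ± 0.34, edgeR adjusted p = 2.45e-06). *Dcx*, which bundles microtubules in migrating neurons, was at 7.91, 5.6 and 3.59 FPKM at D4H8 and 66.5, 75.7 and 65.7 FPKM at D5 (log2 fold change 3.59 ± 0.28, edgeR adjusted p = 7.49e-07). *Gap43*, of growth cones, was at 53, 36 and 26.5 FPKM at D4H8 and 463, 279 and 293 FPKM at D5 (log2 fold change 3.16 ± 0.33, edgeR adjusted p = 8.99e-06). The 5 members that did not pass, *Tubb5*, *Marcks*, *Marcksl1*, *Kif5b* and *Kif21a*, are not restricted to neurons and had D4H8 means from 21.7 to 1043 FPKM.

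Motor proteins of the kinesin family changed in both directions. Of 36 tested, 12 rose and 14 fell (median -0.02). Those that fell most were *Kif18b* (-1.37), *Kif15* (-1.34), *Kif22* (-1.32) and *Kif2c* (-1.31), all of the mitotic spindle. Those that rose most were *Kif5c* (2.71), *Kif5a* (2.64), *Kif26b* (2.35) and *Kif1a* (1.91), of which *Kif5a*, *Kif5c* and *Kif1a* carry cargo along axons. The transport motor *Kif1c* was lower as well (log2 fold change -0.59 ± 0.16, edgeR adjusted p = 0.0129, call lost in 1 of 21 alternatives), and *Kif2a*, which takes microtubules apart, was higher (log2 fold change 0.41 ± 0.14, edgeR adjusted p = 0.0422, call lost in 13 of 21). Tubulins also changed in both directions, with 6 of 21 higher and 7 lower (median -0.26). *Tuba1b* was at 797, 722 and 788 FPKM at D4H8 and 232, 402 and 465 FPKM at D5 (log2 fold change -1.07 ± 0.20, edgeR adjusted p = 0.00127). *Tuba1a* was at 785, 656 and 447 FPKM at D4H8 and 1213, 1788 and 2325 FPKM at D5 (log2 fold change 1.49 ± 0.24, edgeR adjusted p = 4.05e-04), and their near-identical coding sequences make the division of reads between them uncertain.

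Genes that guide axons and bind cells together followed. Of 58, 34 rose and 1 fell (median 1.02). *Slit2*, a repellent ligand made by floor plate and MNs, was at 2.21, 2.54 and 2.43 FPKM at D4H8 and 34.6, 36 and 35.8 FPKM at D5 (log2 fold change 3.90 ± 0.15, edgeR adjusted p = 7.79e-09). Its receptors *Robo1* and *Robo2* rose by 1.26 and 1.79. *Dcc*, the netrin receptor, was at 0.23, 0.22 and 0.33 FPKM at D4H8 and 2.95, 3.93 and 3.87 FPKM at D5 (log2 fold change 3.79 ± 0.27, edgeR adjusted p = 4.03e-07), whereas its ligand *Ntn1* did not pass (0.07). *L1cam*, an adhesion molecule of growing axons, was at 2.55, 2.15 and 2.01 FPKM at D4H8 and 29.1, 28 and 29.5 FPKM at D5 (log2 fold change 3.68 ± 0.18, edgeR adjusted p = 2.17e-08). *Cntn2*, another, was at 22.3, 19.6 and 23.4 FPKM at D4H8 and 191, 169.8 and 197 FPKM at D5 (log2 fold change 3.10 ± 0.29, edgeR adjusted p = 3.00e-06). Mean *Cntn2* was 1.55 FPKM at D4 and 60.2 at D6, so that it was highest at D5 of the 4 stages. *Nrp1* and *Nrp2*, receptors of semaphorins, rose by 2.09 and 1.65. *Efnb3* was the member that fell (log2 fold change -0.74 ± 0.19, edgeR adjusted p = 0.0107, call lost without D4H8 replicate 1). Of 65 tested protocadherins, 41 were higher and 1 lower (median 1.61). Their clustered genes share exons, which makes the counts of single members uncertain. Of 25 integrins, receptors for the cell matrix, 2 rose and 2 fell.

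Most genes of the release machinery and channels rose. Those named below that rose started from 1.2 FPKM or less at D4H8, while the whole release list summed to 154 to 176 FPKM there. Of 47 genes of synaptic vesicles and release, 40 rose and 1 fell (median 2.02). *Scg2*, a granin of dense-core vesicles, showed the largest rise among genes with a mean of at least 100 counts, with 0.32, 0.32 and 0.11 FPKM at D4H8 and 11.4, 9.03 and 7.54 FPKM at D5 (log2 fold change 5.12 ± 0.39, edgeR adjusted p = 7.28e-07). *Syt1*, the calcium sensor of release, was at 0.28, 0.19 and 0.1 FPKM at D4H8 and 4.17, 3.48 and 3.31 FPKM at D5 (log2 fold change 4.15 ± 0.31, edgeR adjusted p = 5.55e-07). *Snap25*, of the fusion complex, was at 1.2, 1.04 and 0.62 FPKM at D4H8 and 8.9, 12.8 and 10.8 FPKM at D5 (log2 fold change 3.47 ± 0.30, edgeR adjusted p = 1.59e-06). Their D6 means were 22.8, 14 and 32.8 FPKM. *Nsf*, needed for membrane fusion in every cell, did not pass (-0.16), and *Sypl*, a relative of synaptophysin outside neurons, fell (log2 fold change -0.46 ± 0.16, edgeR adjusted p = 0.0407, call lost in 7 of 21 alternatives). Of 42 voltage-gated channel genes, 29 rose and 1 fell (median 1.45). Sodium channel *Scn3a*, known from the embryo, was at 0.27, 0.33 and 0.22 FPKM at D4H8 and 6.02, 3.9 and 3.65 FPKM at D5 (log2 fold change 4.06 ± 0.33, edgeR adjusted p = 1.20e-06). *Scn1a*, known from older neurons, had a mean of 0.267 FPKM at D5. Among transmitter receptors, 12 of 20 glutamate receptor genes rose and 0 fell (median 1.31), led by *Gria2* at 0.28, 0.15 and 0.21 FPKM at D4H8 and 6.23, 4.72 and 3.4 FPKM at D5 (log2 fold change 4.46 ± 0.35, edgeR adjusted p = 8.15e-07), and 5 of 11 GABA receptor genes rose.

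Most RNA-binding proteins of the neuronal list rose. Of 33 neuronal RNA-binding and splicing factors, 20 rose and 2 fell (median 0.86). *Ptbp1*, the repressor of neuronal exons, was at 170.1, 148 and 143 FPKM at D4H8 and 31.5, 70.1 and 79.3 FPKM at D5 (log2 fold change -1.36 ± 0.26, edgeR adjusted p = 0.00137). Its neuronal relative *Ptbp2* was at 31, 28.4 and 28.2 FPKM at D4H8 and 41.1, 36.5 and 34.7 FPKM at D5 (log2 fold change 0.36 ± 0.12, edgeR adjusted p = 0.0359). The *Ptbp2* call was lost in 12 of 21 alternatives. *Rbfox1*, a neuronal splicing factor, was at 0.67, 0.71 and 0.27 FPKM at D4H8 and 12.3, 15.8 and 14 FPKM at D5 (log2 fold change 4.61 ± 0.28, edgeR adjusted p = 1.15e-07). *Elavl2*, which stabilises neuronal messages, was at 7.96, 6.63 and 5.92 FPKM at D4H8 and 35.5, 42.2 and 37 FPKM at D5 (log2 fold change 2.48 ± 0.15, edgeR adjusted p = 1.41e-07). *Srrm3*, which activates microexons, rose by 2.63. The general members *Elavl1* and *Celf1* did not pass, at -0.25 and -0.16. Of 26 subunits of the BAF chromatin remodelling complex, 8 rose, 1 fell and 17 did not pass (median 0.11, and 3 and 4 fell without D4 replicate 3 and D5 replicate 2). The subunit of neurons *Actl6b* was at 0.32, 0.3 and 0.11 FPKM at D4H8 and 3.13, 4.18 and 3.97 FPKM at D5 (log2 fold change 3.85 ± 0.29, edgeR adjusted p = 6.22e-07). The progenitor subunit that it replaces, *Actl6a*, was at 42.7, 43.9 and 38.7 FPKM at D4H8 and 29.7, 30.1 and 31.6 FPKM at D5 (log2 fold change -0.45 ± 0.13, edgeR adjusted p = 0.0193, call lost without D4H8 replicate 1 or 2). *Dpf1*, *Dpf3* and *Ss18l1*, the other subunits of neurons, rose by 1.38, 2.19 and 1.28, while the progenitor counterparts *Phf10* and *Ss18* did not pass, at -0.42 and -0.37.

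**Figure D4:**
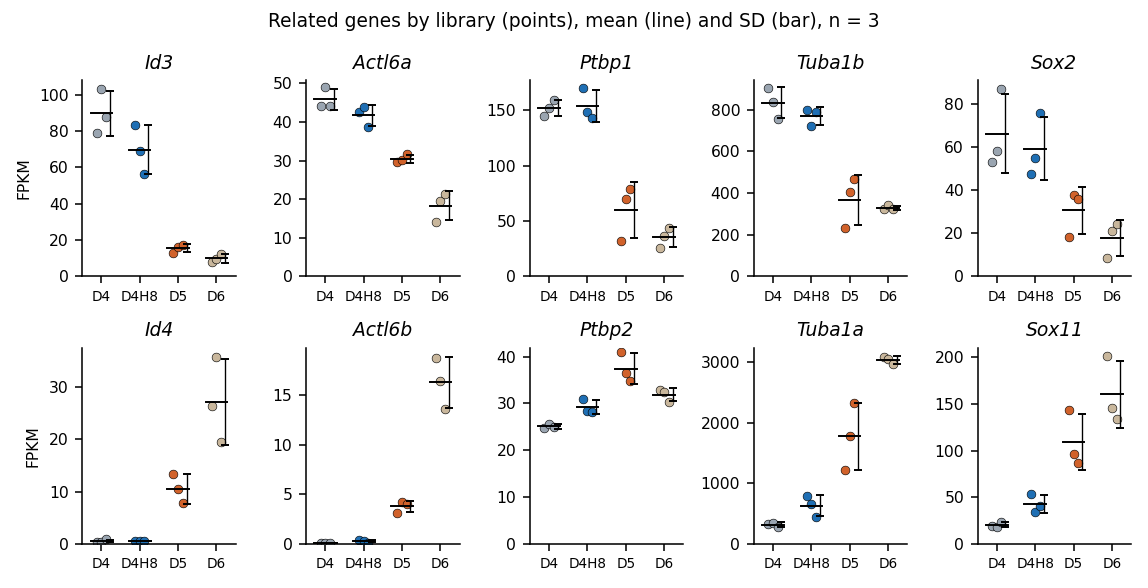
FPKM (y axes, linear from 0) of 5 pairs of related genes in the 12 untreated samples by stage (x axes), the member that fell at D5 above and the one that rose below. Points are samples, lines means and bars SD of 3. *Id4* and *Actl6b* start from under 1 FPKM at D4H8, whereas *Ptbp2* changes little and *Tuba1a* is already among the abundant transcripts.

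The enzymes that set and remove H3K27 methylation, the subject of the wider study, did not move together at this step. Of 29 such genes, with DNA methylation enzymes, 4 rose and 5 fell (median -0.19), with 2 and 4 without D4H8 replicate 2, and 4 and 3 without D4H8 replicate 3. *Kdm6b*, the demethylase, was at 24.2, 23.6 and 26 FPKM at D4H8 and 31.5, 30.3 and 36.9 FPKM at D5 and did not pass although the groups did not overlap (log2 fold change 0.42 ± 0.15, edgeR adjusted p = 0.0543, under 0.05 in 6 of 21 alternatives), and its relative *Kdm6a* did not pass either (log2 fold change -0.18 ± 0.12, edgeR adjusted p = 0.287). *Ezh2*, the methyltransferase, fell (log2 fold change -0.40 ± 0.11, edgeR adjusted p = 0.0143), with the call lost without D4H8 replicate 3. *Jarid2*, a partner of that enzyme, rose (log2 fold change 0.74 ± 0.13, edgeR adjusted p = 8.53e-04). Of the DNA methyltransferases, the maintenance enzyme *Dnmt1* was at 60.8, 63.8 and 65 FPKM at D4H8 and 28.9, 31.8 and 38.6 FPKM at D5 (log2 fold change -0.93 ± 0.12, edgeR adjusted p = 6.82e-05). The de novo enzyme *Dnmt3b* was at 9.02, 10.2 and 11.9 FPKM at D4H8 and 2.64, 4.48 and 5.03 FPKM at D5 (log2 fold change -1.36 ± 0.26, edgeR adjusted p = 0.00152), whereas *Dnmt3a* did not pass (0.03). *Cbx2*, a reader of H3K27me3, had a log2 fold change of -0.78.

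Hox genes, which set the position of MNs along the body axis, rose in part. Of 29 tested, 9 rose and 1 fell (median 0.42). The number that rose was 4 and 3 without D4H8 replicates 2 and 3, and 5 without D5 replicate 1, where the median was 0.63 over 30 tested. *Hoxb5* was at 69.8, 40 and 43.6 FPKM at D4H8 and 166, 118 and 109 FPKM at D5 (log2 fold change 1.36 ± 0.26, edgeR adjusted p = 0.00149), and *Hoxa5* rose by 0.83 with its call lost in 3 of 21 alternatives. *Hoxb1*, of the hindbrain, was the one that fell (log2 fold change -0.85 ± 0.19, edgeR adjusted p = 0.00392). *Hoxc6* was called higher (log2 fold change 1.84 ± 0.54, edgeR adjusted p = 0.0204) although its samples overlapped, with 0.79, 1.76 and 0.97 FPKM at D4H8 and 1.26, 5.64 and 5.61 FPKM at D5, and the call was lost in 4 of 21 alternatives. *Hoxb6* and *Hoxd3* rose by 0.97 and 0.92, and each of these calls was lost without D4H8 replicate 2, D4H8 replicate 3 or D5 replicate 1. *Hoxc8* and *Hoxc9*, of brachial and thoracic levels, were at or below 1 FPKM in both group means and did not pass. The median over the list differed between D5 replicate 1 (0.14 above the D4H8 mean) and the other D5 samples (0.58 and 0.64).

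Counts of the metabolic lists depended on single samples. Of 28 hypoxia and glycolysis genes, 7 rose and 3 fell (median 0.21). Without D4H8 replicates 1, 2 and 3 in turn, 3, 3 and 7 rose and 2, 1 and 1 fell, and without D5 replicates 1, 2 and 3, 4, 5 and 8 rose and 3, 1 and 1 fell. The median member stood at 0.62 from the D4H8 mean in D5 replicate 1, against 0.11 and -0.01 in the other D5 samples, and the median was 0.06 without that sample. *Pfkp*, a phosphofructokinase isoform of brain and platelets, was at 1.77, 4.75 and 5.63 FPKM at D4H8 and 22, 12.6 and 17 FPKM at D5 (log2 fold change 2.12 ± 0.44, edgeR adjusted p = 0.00252). *Eno2*, the neuronal enolase, was at 0.91, 1.36 and 2.53 FPKM at D4H8 and 4.6, 3.45 and 3.44 FPKM at D5 (log2 fold change 1.30 ± 0.30, edgeR adjusted p = 0.00504), and *Hk1*, the hexokinase that prevails in brain, rose by 1.20. Housekeeping enzymes *Gapdh*, *Pkm* and *Ldha* did not pass, at -0.35, -0.05 and -0.06. Of 24 cholesterol genes, 10 rose and 1 fell (median 0.40). The number that rose was 6 and 4 without D4H8 replicates 2 and 3, and 5 and 6 without D5 replicates 1 and 2, with 1 lower each time. The first enzyme of the route, *Hmgcs1*, was at 139, 141 and 105 FPKM at D4H8 and 312, 223 and 190.0 FPKM at D5 (log2 fold change 0.92 ± 0.20, edgeR adjusted p = 0.00341). Of 26 p53 and apoptosis genes, 4 rose and 3 fell (median -0.0038), with 2 and 3 without D5 replicate 2, and 3 and 5 without D5 replicate 3. *Trp53* was at 50.1, 47.9 and 45.5 FPKM at D4H8 and 14.4, 27.1 and 30 FPKM at D5 (log2 fold change -1.01 ± 0.21, edgeR adjusted p = 0.00229), whereas its targets *Mdm2*, *Ccng1* and *Bax* did not pass (-0.02, 0.01 and -0.12).

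Apart from the lists, the largest rises among genes with a mean of at least 100 counts included *Akap6*, an anchor of protein kinase A, at 0.75, 0.37 and 0.36 FPKM at D4H8 and 21.2, 12.1 and 12.8 FPKM at D5 (log2 fold change 4.92 ± 0.33, edgeR adjusted p = 2.37e-07). *Cbln1*, a secreted synapse organizer, was at 0.85, 1.22 and 0.7 FPKM at D4H8 and 30.5, 26.7 and 23.7 FPKM at D5 (log2 fold change 4.87 ± 0.32, edgeR adjusted p = 2.08e-07). *Ecel1*, a membrane protease of MN axons, was at 1.03, 1.41 and 1.58 FPKM at D4H8 and 39.9, 30 and 33.9 FPKM at D5 (log2 fold change 4.73 ± 0.21, edgeR adjusted p = 1.59e-08). *Bhlhe23*, a bHLH repressor, was at 1.11, 1.51 and 0.87 FPKM at D4H8 and 53.7, 25.2 and 25.9 FPKM at D5 (log2 fold change 4.92 ± 0.42, edgeR adjusted p = 1.72e-06). Mean *Bhlhe23* was 9.45 FPKM and mean *Galnt14*, a glycosyltransferase that rose by 4.64, was 1.21 FPKM at D6, so that both were highest at D5 of the 4 stages, whereas mean *Ecel1* reached 178 FPKM at D6. *March4*, *Uts2b*, *Nyap2*, *Rbfox1* and *Sncg* rose by similar amounts, between 4.61 and 4.74. The remaining large falls were those of *Cd109* (-2.12), *Fam167a* (-1.98), *Fam181a* (-1.95), *Sox2ot* (-1.89) and *Foxb1* (-1.86), all from 6.64 FPKM or less in every D4H8 sample. A group of 66 called genes had at most 3 counts in every D4H8 sample, 40 of them with an official symbol. *Gjd2*, encoding the neuronal gap junction protein connexin 36, had 0, 0 and 0 counts at D4H8 and 26, 42 and 38 counts at D5, at least 14-fold higher when 3 counts per D4H8 sample are taken as the limit. *Clca1* and *Rtl9* were at least 15.9-fold and 13.7-fold higher on the same terms, and *Gm39244*, *Gm15847* and *Gm31432*, predicted genes, at least 22.5-fold, 19.3-fold and 14.5-fold. The reverse, at most 3 counts in every D5 sample, held for 10 called genes, 1 of them with an official symbol. The 6 with the most counts, *Gm38082*, *Gm42692*, *Gm40309*, *Gm29797*, *Gm43099* and *Gm7645*, were at least 5.91-fold, 4.44-fold, 4.72-fold, 3.84-fold, 4.04-fold and 3.24-fold lower, and each lost its call in 1 to 11 alternatives.

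Genes that rose tended to be longer than genes that fell. Among tested protein-coding genes, the median genomic span was 36.4 kb for 2785 higher genes, 24.8 kb for 1731 lower genes and 22.6 kb for 10000 genes not called. Spans of 100 kb or more were held by 26.2% of the higher genes and 11.5% of the lower genes. When the genes were split by span into 5 groups of equal size, 14.1% of the shortest group and 30.5% of the longest were called higher, and 10.8% and 9.75% were called lower. These groups also differed in depth, with a median of 311 mean counts in the shortest and 460.3 in the longest. In D4H8 the lower genes had the higher levels, with a median of 13.8 FPKM against 3.01 FPKM for the higher genes. Of 1437 long noncoding RNAs 11.3% were higher and 3.76% lower, and of 972 pseudogenes 2.47% and 4.01%.

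The same stages with GSKJ4 added a day before harvest were compared with the untreated ones in a fit of 12 samples. Treatment thus began at D4, the day of DAPT addition, for the D5 samples and before D4 for the D4H8 samples. The treated D4H8 samples were therefore not an earlier point of the treated D5 cultures. The contrast sets the effects of separate treatment windows against each other. Of 17408 genes tested, 25 had a more positive change with GSKJ4 (0.144%) and 0 a more negative one at the adjusted threshold, while 685 and 671 had an unadjusted p under 0.05. DESeq2 called 105 and 30. The count moved with the samples used, from 2 without D4H8 replicate 1 to 121 without D4H8 GSKJ4 replicate 1. For each of the 25 the fitted change with GSKJ4 was a rise, and for 15 the fitted change without it was a fall. The smallest p belonged to *Neurog2*, with 108, 91.8 and 97.6 CPM at D4H8 and 36.7, 68.5 and 64.8 CPM at D5 without GSKJ4, and 7.44, 3.39 and 8.97 CPM at D4H8 and 29.2, 41.2 and 45.1 CPM at D5 with it (difference of the log2 changes 3.36 ± 0.40, edgeR adjusted p = 0.00636). *Pou3f2*, a POU factor of neurons, had 109, 76.5 and 98.6 CPM at D4H8 and 64.3, 84 and 75 CPM at D5 without GSKJ4, and 21.2, 8.7 and 11.4 CPM at D4H8 and 94.8, 63.8 and 76.8 CPM at D5 with it (difference of the log2 changes 2.86 ± 0.40, edgeR adjusted p = 0.00983). *Olig2* had 313, 201 and 232 CPM at D4H8 and 38.5, 61.2 and 70.2 CPM at D5 without GSKJ4, and 20.6, 4.67 and 27.3 CPM at D4H8 and 28.7, 35.8 and 52.6 CPM at D5 with it (difference of the log2 changes 3.33 ± 0.59, edgeR adjusted p = 0.0452, call lost in 9 of 18 alternatives). For these genes the treated D4H8 samples were low, and the treated D5 samples overlapped the untreated D5 samples. No member of the mitosis and replication lists was called different: their median change was -1.21 and -1.19 without and -1.01 and -0.84 with GSKJ4, which does not show that they changed alike. A treated sample, D5 GSKJ4 replicate 2, had 16019 genes detected against 22595 to 24377 in the other treated samples, and without it 23 genes were called.

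**Figure D5:**
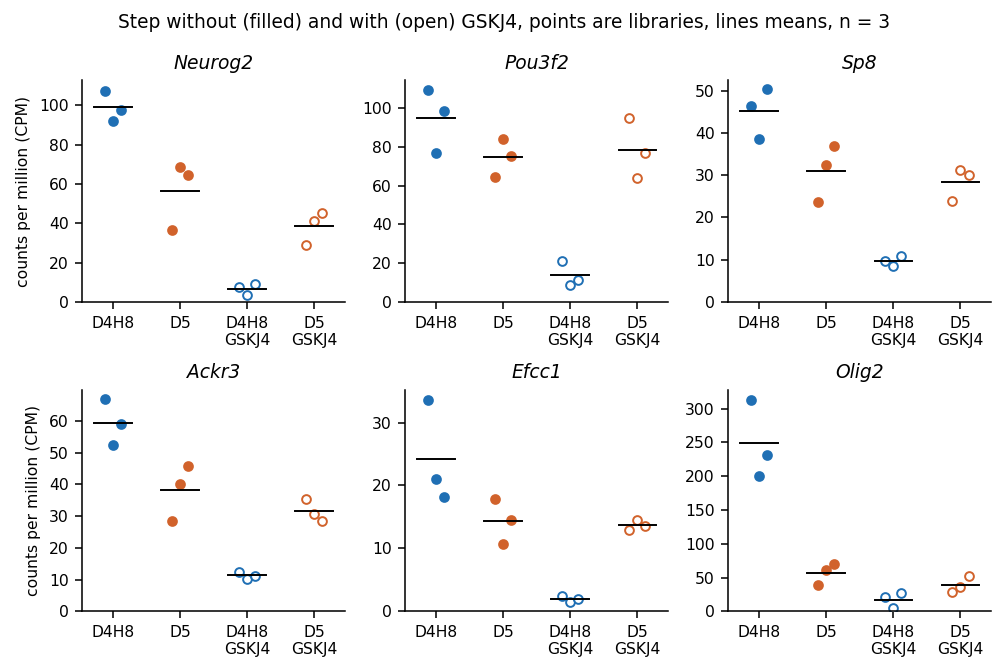
CPM (y axes, linear from 0) of 6 genes at D4H8 and D5 without GSKJ4 (filled points) and with it (open points). Points are samples and lines are means of 3. With GSKJ4, given over the last day before each harvest, the D4H8 means lie below the untreated ones and below the treated D5 means. Without it the D5 means lie below the D4H8 means.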

How the data were processed

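Poly(A) RNA-seq of whole embryoid bodies was analysed from the gene counts the authors deposited, which they made, per their methods, by trimming with Fastp, aligning with HISAT2 to mm10 (Ensembl annotation) and counting with HTSeq. The FPKM values were computed by the authors from the same counts. Levels are these FPKM, except where CPM is named. Counts of all 12 untreated samples were fitted in R 4.3.3 with edgeR 4.0.16 (TMM scaling, filterByExpr with a minimum count of 10, quasi-likelihood test, 1 mean per group), and D5 was contrasted with D4H8, with Benjamini-Hochberg adjustment over 17519 genes. The standard error was the log2 fold change divided by the root of the F statistic. The difference of the step with GSKJ4 was a contrast over 12 samples, the 6 of the step and the 6 treated ones at the same stages. Scripts were tested on simulated data.

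The gene lists, markers and comparisons were chosen with earlier results of these data known. Genes were named by rule: 6 stage markers, the 15 largest rises and 15 largest falls among called genes with a mean of at least 100 counts, the 8 largest gains and losses in CPM, up to 4 members per list, and 6 genes each from or to at most 3 counts. Other genes were named for their known roles after their values were seen. Some list members that were counted are not reported here by name. Same-numbered D4H8 and D5 samples deviated together from their group means (correlations 0.33, 0.17 and 0.15 across genes). Replicates 2 and 3 did so nearly as much across numbers (0.10 and 0.11), while pairs of replicate 1 with another number lay from -0.23 to -0.20. Deviations from a group mean cancel out within the group, so the values of these pairs depend on each other. The pairing stood out for replicate 1, and this comparison cannot decide it for replicates 2 and 3. Replicate numbers paired the samples in the blocked fit. Total counts of 14982115 to 34383842 set the precision, and 3 counts were taken as the limit of a sample at 0. Where separate cultures are not stated beyond "biological replicate", p-values measure the spread between these samples. Near-identical copies (tubulins, ribosomal proteins, clustered protocadherins) and genes overlapping on opposite strands have uncertain counts. Promoters were from RefSeq (GRCm38.p6), and gene spans from GENCODE.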

Additional observations from a re-analysis of the deposited data

Results flagged for a closer look

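In 25 genes the D5 to D4H8 difference with GSKJ4 differed from that without it by a test of the difference itself (edgeR, 12 samples, 17408 genes tested). The treated groups had separate treatment windows, each the last day before harvest. The 6 with the smallest p were *Neurog2* (3.36), *Efcc1* (3.54), *Gm28230* (3.76), *Sp8* (2.08), *Ackr3* (2.12) and *Pou3f2* (2.86), each value being the log2 change with GSKJ4 minus the log2 change without it. *Sp8*, a zinc finger factor of the ventral spinal cord, had 46.5, 38.6 and 50.4 CPM at D4H8 and 23.6, 32.4 and 36.9 CPM at D5 without GSKJ4, and 9.7, 8.58 and 10.9 CPM at D4H8 and 23.8, 31.3 and 30 CPM at D5 with it (difference of the log2 changes 2.08 ± 0.28, edgeR adjusted p = 0.00983). *Ackr3*, a scavenging chemokine receptor, had 67, 52.3 and 58.9 CPM at D4H8 and 28.6, 40.2 and 45.7 CPM at D5 without GSKJ4, and 12.3, 10.3 and 11.3 CPM at D4H8 and 35.5, 30.7 and 28.5 CPM at D5 with it (difference of the log2 changes 2.12 ± 0.29, edgeR adjusted p = 0.00983). In all 6, every treated D4H8 sample was below every untreated D4H8 sample.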

How the results depend on the processing

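The step itself kept its counts within 1.5 times under 21 alternatives. Genes called higher numbered 2659 to 3246 and genes called lower 1800 to 2396 under other tools, scalings, filters, depths or samples in the fit, and 2363 to 3113 and 1273 to 2391 when each of the 12 samples was left out in turn. With the replicate block they numbered 3246 and 2173, and 2880 and 2396 when the block was used on the 6 samples alone, which was added after seeing the data. Of the 135 genes named by rule, 119 kept their call in every alternative, 15 lost it in at least 1, *Neurod1* gained one, and 0 changed direction. Genes named for their known roles were not part of this count. Some of them lost their call as well, such as *Sox2* in 4 and *Foxp4* in 7 of 21 alternatives. Of 651 recomputed list medians 614 moved by less than the spread between replicates and 11 took the other sign.

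The count of genes called in the GSKJ4 contrast was 25, against 135 with DESeq2, 232 without the filter on low counts and 77 with the replicate block. Of these 77, 73 were more positive and 4 more negative. Leaving out 1 sample gave 2 to 121. It was 2, 11 and 15 without D4H8 replicates 1, 2 and 3, 6, 7 and 10 without D5 replicates 1, 2 and 3, 121 and 13 without D4H8 GSKJ4 replicates 1 and 3, and 9 and 12 without D5 GSKJ4 replicates 1 and 3. The cause was not tested. The block moved neither count of the step by over 1.5 times. With 3 samples a group, not every change was resolved: the rise of *Ptbp2* by 0.36 on the log2 scale lost its call in 12 of 21 alternatives. In counts simulated for 12 samples, with the same spread for all genes, edgeR called 61% of genes changed by 1 on the log2 scale. Of genes changed by 2 it called 95%. A gene that did not pass is therefore not shown to be unchanged.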
